A study of Arabidopsis thaliana with 9 samples.

Results

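The 9501 regions described here are the places where NAC103-GFP was found on chromatin of MG132-treated Arabidopsis seedlings in at least 2 of 3 replicates of chromatin immunoprecipitation (ChIP). The 3 ChIP peak lists were joined on chromosomes 1 to 5 wherever peaks shared 1 bp or more, which gave 22435 regions, and a region was kept when it held a peak of at least 2 replicates. Merged over all 5 lists of the series, the peaks made up 39918 regions. The ChIP seedlings carried a fusion of NAC103 to green fluorescent protein under the 35S promoter (35S:NAC103-GFP), which drives strong expression in most tissues, so the sites are those of an overexpressed protein. Whole seedlings were 5 days old, had been kept for 24 h in 20 µM of the proteasome inhibitor MG132 and were fixed in 1% formaldehyde. Each ChIP replicate had an input of the same number. The series also holds 2 replicates of DNA affinity purification (DAP), in which a NAC103-Halo protein was mixed with bare genomic DNA of untreated 5-day-old Col seedlings, with 1 input. No ChIP of untagged or GFP-only seedlings and no ChIP without MG132 was used here, so binding that depends on MG132, and peaks due to the tag or the antibody, cannot be told apart from binding of NAC103. Because whole seedlings were used, strong binding in few cells and weak binding in many cannot be told apart either.

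NAC103 belongs to the NAC family, a large group of plant transcription factors that bind DNA through a shared domain at their amino-terminal end. It is known from the response to unfolded proteins in the endoplasmic reticulum, where its gene acts downstream of bZIP60, and from the response to DNA damage. The 26S proteasome destroys proteins tagged with ubiquitin, and MG132 blocks its core. When it is blocked, many short-lived regulators accumulate, and plant cells are known to make more proteasome subunits through other NAC factors, NAC053 and NAC078.

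The 3 lists were of very unequal length: 4187, 14318 and 17074 nuclear peaks in replicates 1, 2 and 3. The authors' fold enrichment, the ratio of ChIP signal to background at a summit, had a median of 1.94, 2.06 and 2.47 in the same order. Most peaks were therefore weak, and the −log10 of the q-value reached 10 in 325, 1591 and 5444 of them. Of the reproducible regions, 2781 had a peak in all 3 replicates, 5882 in replicates 2 and 3, 682 in replicates 1 and 3, and 156 in replicates 1 and 2. Replicates 2 and 3 alone thus contributed most of them. Where a pair of replicates shared a region, their best summits lay a median of 82 bp apart for replicates 1 and 2, 53 bp for 1 and 3, and 90 bp for 2 and 3. Library depth is unknown here, since the peak lists carry no read totals. The labels do not state separate cultures for the replicates, and their differences may be technical. For each region the rank is the mean, over its replicates, of the percentile of fold within each list, and the anchor is the summit of its best peak.

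NAC103 itself lay under a region of all 3 replicates. The gene spans 25633455 to 25635789 of chromosome 5 (TAIR10). Replicate 2 had 1 peak of 2960 bp, from 25632874 to 25635833, which covered the whole gene with a fold of 3.78 and a −log10 q of 42.7, at percentile 98.1 of its list. Replicate 1 had a peak of 302 bp inside the gene with a fold of 1.70, at percentile 11.4. In replicate 3 a peak of 482 bp with its summit outside the gene had a fold of 2.45, and a second of 1332 bp inside it had a fold of 2.07. The replicates therefore differed in strength and in place, and the anchor, 870 bp inside the gene, was too deep for the windows at gene ends used below. The seedlings also carry the NAC103 sequence in the transgene, in the ChIP and in the input, and reads from it cannot be told apart from those of the gene's own locus.

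Most ChIP regions sat at the ends of protein-coding genes. Of the 9501 anchors, 7573 (79.7%) fell within 1000 bp outside or 500 bp inside an end of a coding gene, windows that cover 48.2% of the 5 chromosomes. The median distance from an anchor to the nearest end was 253 bp. Start and stop ends are not told apart, because the gene table used gives no strand. The place of the summits differed between replicates. In replicate 1, 44.0% of summits lay inside coding genes, in replicate 2 70.2% and in replicate 3 52.9%. The fullest 100 bp bin was the first one inside the gene end in replicates 1 and 3, with 11.9% and 17.8% of all summits, and the bin 200 to 300 bp inside in replicate 2, with 12.02%. Replicate 2 summits were thus shifted into the genes. Strength went with place as well. Of the tenth of regions with the best rank, 34.9% of anchors lay inside coding genes, and of the tenth with the lowest rank 69.3%.

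**Figure D1:**
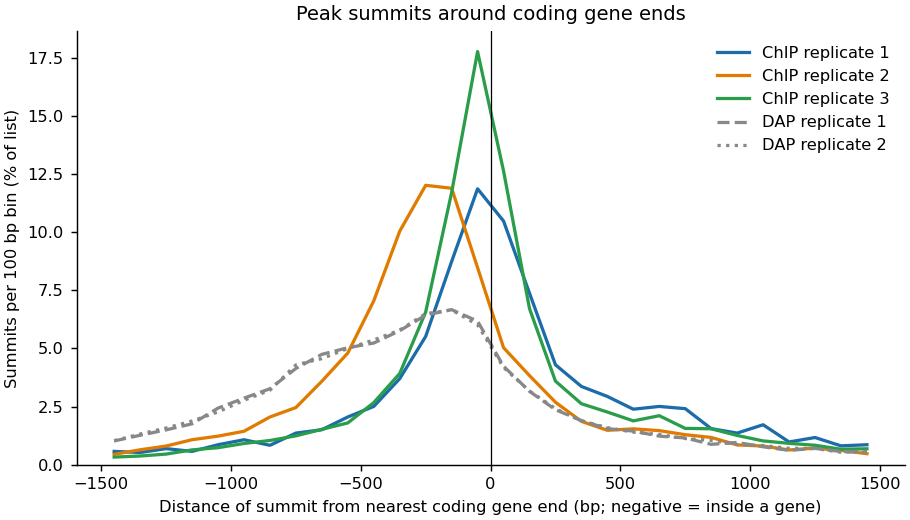
The curves give the share of the summits of each list in bins of 100 bp by distance from the nearest coding gene end, with distances inside a gene as negative values. The 3 ChIP curves (solid) rise to between 11.9% and 17.8% near the end, replicate 2 deeper inside the gene than the others, while the DAP curves (broken) reach 6.67% at most and overlie each other.

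Summits on bare DNA were spread differently. The ChIP and DAP libraries were also made with different kits, whose part in the difference was not tested. The share of summits within 300 bp of a coding gene end was 48.3%, 44.0% and 59.0% in the ChIP lists and 29.1% and 29.0% in the DAP lists. Every ChIP list lay above both DAP lists, and the means differed by 21.4 percentage points (50.4% ± 7.74, SD, n = 3, against 29.0% ± 0.0667, n = 2). The exact two-sided permutation test over all 10 splits gave p = 0.1, the smallest it can give, and 0.15 after Benjamini-Hochberg adjustment over 3 measures. The median distance to an end was 322, 348 and 209 bp in ChIP and 601 and 600.5 bp in DAP (exact permutation p = 0.1, adjusted 0.15), again without overlap. For the share of summits inside coding genes the groups overlapped, since DAP had 64.2% in both lists and ChIP replicate 2 lay above that and the others below (exact permutation p = 0.4).

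The very first regions by rank lay away from coding genes. Of the 10 best-ranked regions with a peak in all 3 replicates, 2 had the anchor in a window at a coding gene end, and the other 8 anchors were neither in a window nor inside a coding gene. Further down this was no longer so: the anchor was in a window for 10 of the best 20, 32 of the best 50 and 69 of the best 100, and for 2145 of all 2781 such regions. The first, on chromosome 2 from 3531957 to 3533371, had folds of 12.7, 48.0 and 39.0 in replicates 1, 2 and 3, and its anchor lay 5000 bp from the nearest coding gene. A neighbour from 3537428 to 3538657 had folds of 9.84, 32.8 and 24.0. The third, on chromosome 3 from 14509132 to 14510390, had 8.46, 31.5 and 15.3 beside the pseudogene AT3G42386. All 3 replicates ranked these regions high, with folds far above the list medians. Whether reads map there uniquely was not tested.

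The 20 best-ranked coding genes in all 3 replicates shared 13 anchors, with folds of 3.36 to 4.197 in replicate 1, 5.77 to 20.7 in replicate 2 and 5.199 to 9.06 in replicate 3. LAF3, a gene of phytochrome A light signalling, came first, with 4.197, 13.7 and 6.33 in a region on chromosome 3 from 20725361 to 20726142. SRO3, of the RCD1-like proteins, had 3.78, 11.8 and 8.10. CIPK23, the kinase that controls potassium and nitrate uptake in the root, had 3.87, 13.8 and 5.36 at an anchor 211 bp outside the gene. Each of these anchors had no noncoding gene within 300 bp. The same held for AT4G05380, AT1G30660 and the anchor shared by AT4G12731, AT4G12735 and AT4G12740. At the other 7 anchors, one or more noncoding genes were as near. ARLA1D, a small GTPase gene, shared its anchor with AT5G67550 and with an RNA of unassigned type, at folds of 3.799, 18.8 and 6.42. AT1G70180 and AT1G70190 shared theirs with the noncoding RNA gene AT1G70185, and AT5G62420 lay beside the long noncoding RNAs AT5G09065 and AT5G09070. At 4 of the 7 the noncoding gene encoded a small nuclear RNA: U4.8 and U1.9 beside AT5G26990, U2.7 beside AT5G61450 and MIM (a chromosome maintenance protein gene), U5.6 beside AT1G04470 and AT1G04480, and U2.5 beside AT5G09580 and MTHSC70-2 (a mitochondrial HSP70 gene). At such anchors, binding at the coding gene and at its noncoding neighbour cannot be told apart.

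Genes of the small nuclear RNAs (snRNAs), the RNA cores of the spliceosome, were bound more often and more strongly than any other gene type. An anchor lay inside or within 300 bp of 41 of the 82 snRNA genes in the RefSeq table, against 23.2% of genes of every type and 27.6% of coding genes. A region of all 3 replicates was at 31 of the 82, against 7.86% of coding genes by the same reach. The median rank of the 41 was 95.4, against 55.9 for coding genes bound by this reach. The 41 genes shared 37 regions, since 3 pairs of U1 and U4 genes and the pair U2.17 and U5.10 stand side by side, and the anchor lay inside the snRNA gene itself in 29. Median folds over the genes with a peak were 2.79, 11.9 and 3.77 in replicates 1, 2 and 3, where all reproducible regions had 1.97, 2.19 and 2.71. Replicate 2 thus stood out most at these genes.

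U2, which pairs with the branch site of introns, had the most bound genes: 13 of 23, each in all 3 replicates. The gene U2.7, at 24713264 to 24714094 of chromosome 5, had folds of 3.36, 18.5 and 6.47 in replicates 1, 2 and 3. U2.11 had 3.02, 16.9 and 5.10, and the weakest bound U2 gene, U2.8, had 1.91, 2.22 and 2.64. Of the genes for U1, which recognises the start of the intron, 9 of 14 were bound, and of U4 and U5, partners in the tri-snRNP, 6 of 11 and 5 of 14. The anchor lay inside the gene for 2 of the 6 U4 genes. U4.5, U4.7 and U4.8 shared a region anchored inside a U1 gene, so binding at U4 and U1 cannot be told apart there. U12, of the minor spliceosome, had 3.07, 14.8 and 5.28. The folds at U6 genes were lower. RNA polymerase III transcribes them, while polymerase II transcribes U1, U2, U4 and U5. Of 14 U6 genes 4 were bound (28.6%), near the 27.6% of coding genes by the same reach. None of the 4 had a peak in replicate 1, and their median folds were 2.23 and 2.69 in replicates 2 and 3, close to the medians of all regions. The part of the polymerase was not tested. Class sizes include short entries, such as U6.11p with 24 bp, and names listed repeatedly, such as U2.7, so the class shares compare only loosely. Near-identical snRNA copies can share reads, and how the authors treated reads with several matches is not given in the sources used here.

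**Figure D2:**
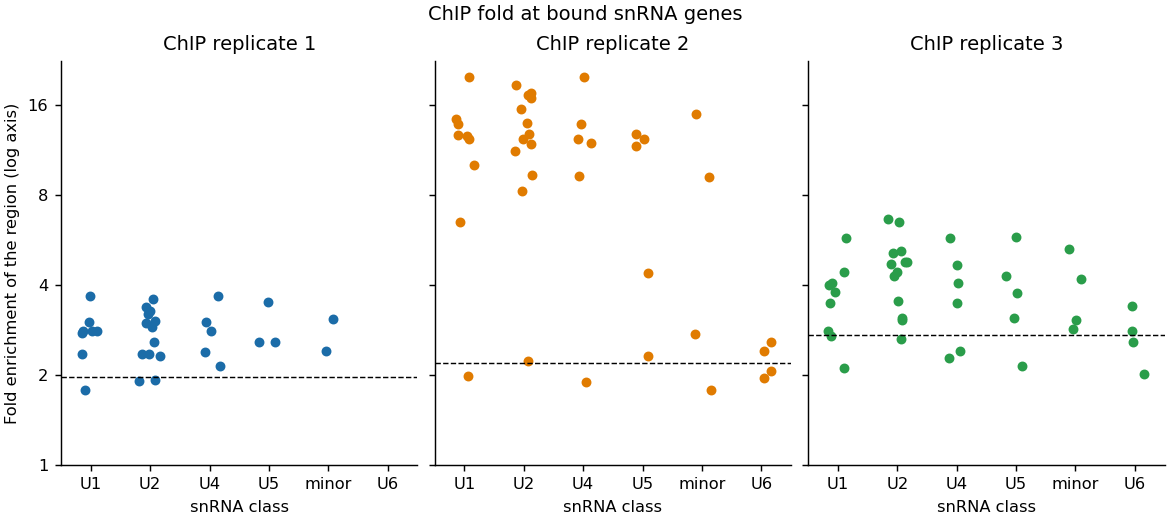
Each point is the authors' fold enrichment, on a log axis, of the region at 1 bound snRNA gene in 1 ChIP replicate, by class, and the dashed lines are the medians of all reproducible regions (1.97, 2.19 and 2.71). The highest fold in replicate 2 is 19.8, at 1 region counted for both U1.9 and U4.8. The highest for U2 is 18.5 and for U5 12.8, while U6 genes stay near the dashed lines and have no peak in replicate 1.

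The single lists were then set beside each other. The tests by gene type were not among those planned. They were made with the ChIP regions at snRNA genes and at the other gene types known, so they are a description only. A summit lay inside or within 300 bp of 32, 42 and 44 of the 82 snRNA genes in ChIP replicates 1, 2 and 3, that is 39.0%, 51.2% and 53.7%, where genes of every type had 9.35%, 31.9% and 38.5%. In the DAP lists it was 5 and 4 genes, or 6.10% and 4.88%, where genes of every type had 40.7% and 41.1%. The snRNA genes were thus above the share of all genes in every ChIP list and below it in both DAP lists, and the 2 groups did not overlap (exact permutation p = 0.1, the smallest possible, adjusted 0.35 over 7 gene types). Genes of transfer RNAs showed a smaller difference in the same direction, with 12.6%, 40.2% and 48.6% in ChIP and 5.44% and 4.48% in DAP (exact permutation p = 0.2). Pseudogenes went the other way. They had a ChIP summit in 2.02%, 2.88% and 2.91% of cases and a DAP summit in 23.7% and 23.5% (exact permutation p = 0.1, adjusted 0.35). MicroRNA genes did not separate the assays, with 4.91%, 10.7% and 11.3% against 13.2% and 10.4%. The best-ranked microRNA gene was MIR168a, whose product targets the silencing protein AGO1, with folds of 2.30, 3.46 and 4.36. The best tRNA gene, AT2G44320, had 4.04 and 3.43 in replicates 2 and 3.

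**Figure D3:**
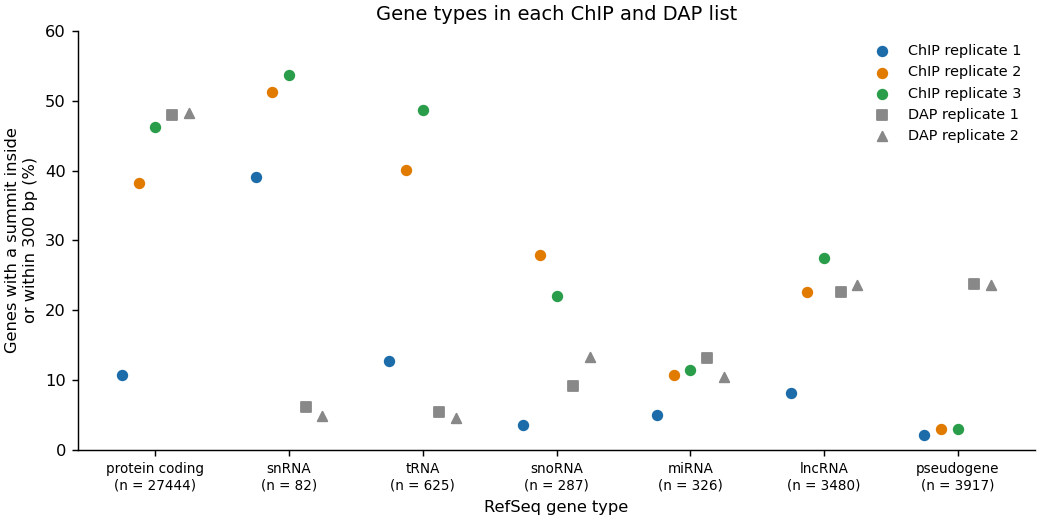
Each symbol gives the share of genes of 1 RefSeq type with a peak summit inside or within 300 bp, in 1 list. The snRNA genes have 39.0% to 53.7% in the 3 ChIP lists (circles) and at most 6.10% in the 2 DAP lists (grey), and pseudogenes have at most 2.91% in ChIP and at least 23.5% in DAP.

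Some ChIP regions covered whole genes. Of the 9501 regions 212 were at least 2000 bp wide, 161 of these had a peak in all 3 replicates, and 81 held a complete coding gene. Their median rank was 81.4. The width came mainly from replicate 2, which had 144 single peaks that wide, while replicates 1 and 3 had 3 and 33 and each DAP list had 23. Without replicate 2, 34 wide regions were left. Coding genes overlapped by one of the 212 numbered 335, or 1.22% of all. The limit of 2000 bp was chosen after the widths were seen.

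Members of several lists lay under the wide regions. Of the cytosolic HSP90 and HSP70 list 3 of 7 genes were overlapped, of the RCD1 and SRO list 2 of 6, of the proteasome ATPase, RPN and core lists 3 of 11, 4 of 19 and 3 of 24, and of the ubiquitin genes 3 of 14. None of the 36 E2, 10 COP9, 5 cullin, 9 ATG8 and 9 endoplasmic reticulum disposal genes was overlapped. As only 1.22% of all coding genes were, this absence says little for lists so short, and many other lists shared it. CDC48, the ATPase that pulls ubiquitin-tagged proteins from complexes and membranes, lay under a region of 4601 bp that covered 97.4% of the gene, with folds of 2.17, 4.41 and 3.31. NBR1, the receptor that brings ubiquitin-tagged aggregates to autophagy, lay wholly under a region of 4228 bp with 2.18, 3.48 and 2.94. UBQ10, which encodes polyubiquitin, was covered over its whole length by a region of 3420 bp with 2.81, 6.86 and 4.56. The widest region, 6141 bp, covered ABCB4, an auxin transporter gene, with 2.52, 5.41 and 3.28. RCD1, a hub protein that binds many transcription factors, had a region of 4160 bp over 74.4% of its length. WRKY33, ATAF2 and PYL4 were other regulators covered completely.

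An anchor lay in a window at an end of 9407 of the 27444 nuclear coding genes, 34.3%, which are called bound here. Regions of all 3 replicates alone gave 3000 genes, or 10.9%. A gene under a region was not counted by that region when the anchor lay outside its windows. CDC48, NBR1 and RPT1A lay under such regions of all 3 replicates, with ranks of 86.4, 82.7 and 70.8. A summit of a single list lay in the window of 14.8%, 44.0% and 55.5% of coding genes in replicates 1, 2 and 3, so that binding in 1 list says little by itself. Of the bound genes 7571 had 1 anchor, 1685 had 2, and 1576 had an anchor at both ends. An anchor served 2 genes in 3287 regions and none in 1928. Longer genes were bound more often. The share was 23.9% for genes of up to 1146 bp and 38.9% for genes of at least 3311 bp.

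The bound genes were read through 60 gene lists that together hold 2006 genes. The lists were filled by matching gene symbols, synonyms and locus tags, so a list can lack members of its class. DREB19, for example, was in no list. Counts by list or family are therefore counts of the matched genes, not of a whole family. For each list the share with a summit in the window was set against that of all coding genes, replicate by replicate. It was above in all 3 replicates for 34 lists, below in all 3 for 9, and mixed for 17. With peaks of −log10 q of at least 10 alone, 4.17% of all coding genes were bound, a share at which short lists hold few or none, and 7 of the 34 lists had no bound gene: unfolded protein response regulators, endoplasmic reticulum chaperones, small heat shock proteins, clade A PP2C, SnRK2, light-harvesting and tubulin genes. In a window of 500 bp outside to 100 bp inside an end, which held an anchor for 19.6% of coding genes, the WRKY, Aux/IAA, abscisic acid receptor, light-harvesting and LEA lists went from above all genes to below.

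**Figure D4:**
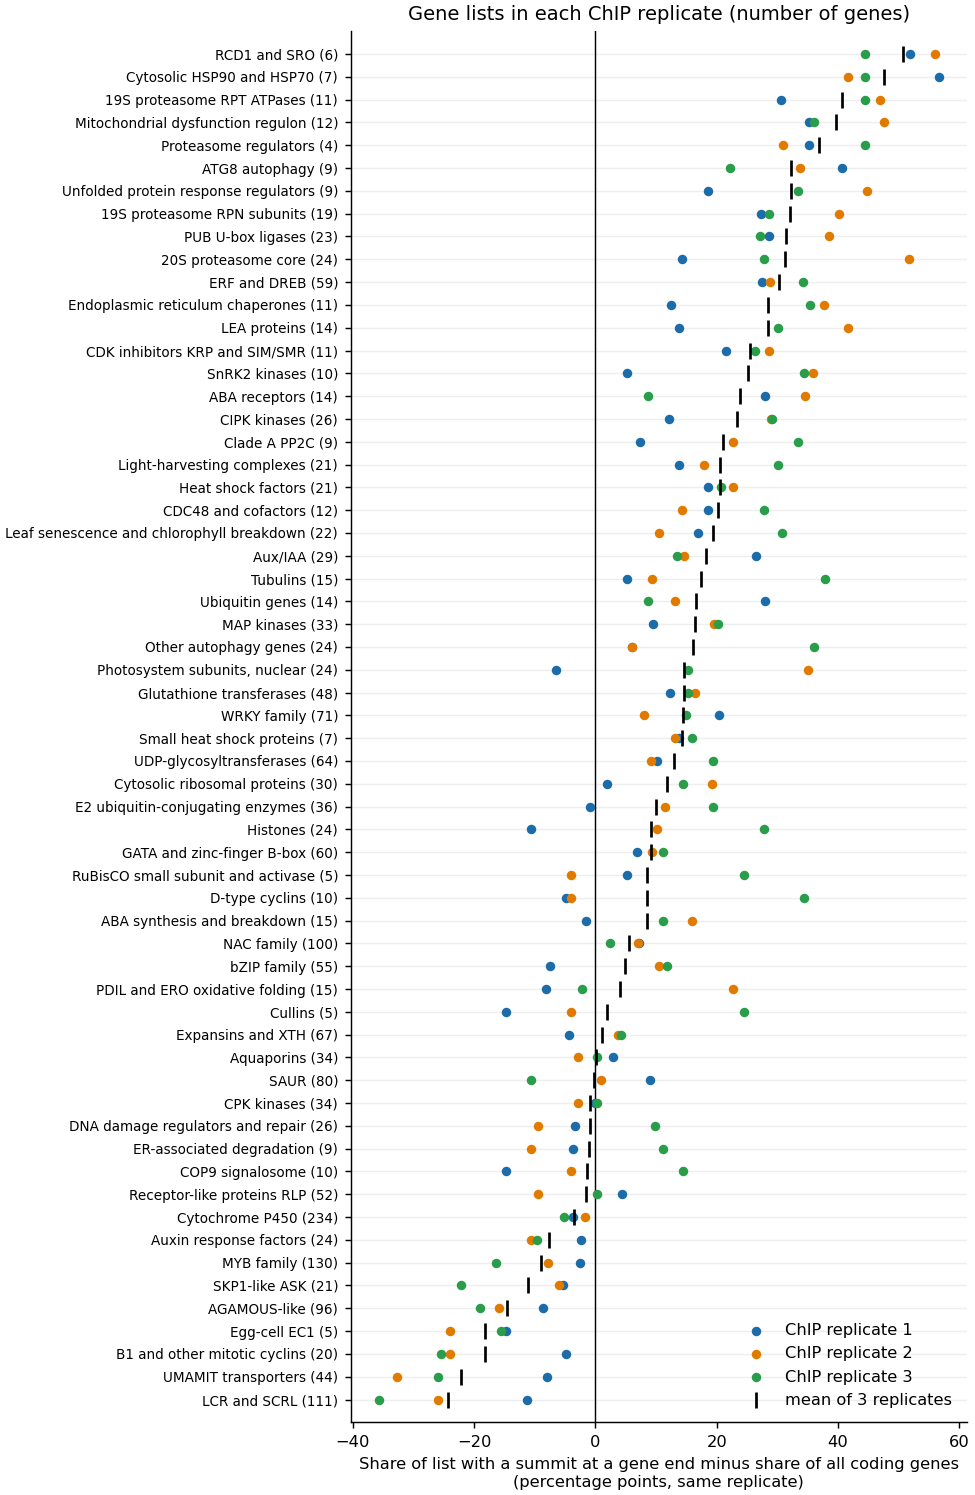
For each of 60 gene lists (number of genes in brackets) the points give the share with a summit at a gene end minus the share of all coding genes, in percentage points, in each ChIP replicate, and the bar the mean of the 3. Points right of 0 in all 3 replicates belong to 34 lists, led by RCD1 and SRO genes, cytosolic HSP90 and HSP70 genes and proteasome ATPase genes, and LCR and SCRL genes lie lowest.

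Most proteasome genes were bound. Fewer had a summit in replicate 1, as was so for all coding genes. In the list of the 20S core, the barrel in which proteins are cut, 22 of 24 genes were bound, and 5 of them by a region of all 3 replicates. A core gene end held a summit for 7, 23 and 20 of the 24 in replicates 1, 2 and 3. These shares of 29.2%, 95.8% and 83.3% stood beside 14.8%, 44.0% and 55.5% of all coding genes. The RPT and RPN lists had 45.5% and 42.1% in replicate 1. PAD1, an alpha subunit, led with folds of 2.95 and 4.38 in replicates 2 and 3 and no peak in replicate 1. The beta subunit genes PBD1, PBD2 and PBF1 followed with folds of 2.75 to 3.48 in the same replicates. Of the RPT ATPases, which unfold proteins at the entrance of the core, 9 of 11 genes were bound, led by RPT2a, AT5G20000, RPT3 and RPT5B. RPT3 had 2.07, 5.27 and 2.71 in replicates 1, 2 and 3. The RPN subunits of the lid and base had 13 of 19 genes bound. ATS9 ranked first with 3.45 and 2.74 in replicates 2 and 3, then the ubiquitin receptor gene RPN10 with 1.90, 3.52 and 4.12, RPN1A and AT1G04810.

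The core genes were bound often but not strongly. Their bound members had a median rank of 56.1, and the RPT and RPN members 58.004 and 51.9, where all bound coding genes had 58.5. Of the 4 proteasome regulators 3 were bound. PA200, an activator that caps the core, had folds of 2.05, 4.01 and 4.26, NAC053, a NAC factor that switches on proteasome genes, had 2.08, 2.64 and 5.09, and AT3G53970 had 2.15 and 2.103 in replicates 2 and 3.

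Genes that attach or carry ubiquitin were more varied. Of the plant U-box (PUB) ligases 16 of 23 were bound, 8 of them in all 3 replicates. PUB22 and PUB23, which dampen drought and immune responses, had 2.41, 2.64 and 4.70, and 2.76, 2.76 and 4.36. PUB9 and PUB19 were the next by rank. Ubiquitin genes were bound in 8 of 14 cases, led by UBQ10, with UBQ11, UBQ6 and UBQ5 after it, and CDC48 and its cofactors in 6 of 12. The last were led by PUX4, a regulator of CDC48, with 2.60, 2.43 and 4.73, and by AtCDC48B, UFD1 and PUX5. The wide region over CDC48 itself did not count for that gene, since its anchor lay outside the windows. E2 ubiquitin-conjugating enzymes were bound in 17 of 36 cases, or 47.2% beside 34.3% of all coding genes. In replicate 1, with 5 of 36, they stood at -0.938 percentage points relative to all genes. The COP9 signalosome, which trims cullin ligases, had 4 of 10 bound (FUS6, COP13, FUS5 and CSN6A), 40.0% beside 34.3% of all coding genes. None of the 10 had a summit in replicate 1, where 14.8% of all coding genes had one. That absence says little for so short a list. No cullin gene was bound by the 2-replicate rule, though replicates 2 and 3 had a summit at 2 and 4 of the 5. Of all coding genes 44.0% and 55.5% had one in these replicates. The SKP1-like ASK genes lay below all genes in every replicate, with 5 of 21 bound. Their median length was 688 bp, and short genes were bound less often in general.

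Chaperone genes of the cytosol and of the endoplasmic reticulum were among the lists most often bound. Of the 7 cytosolic HSP90 and HSP70 genes in the list 6 were bound, all 6 by regions of all 3 replicates. Hsp70-2 and HSC70-1 shared an anchor with folds of 2.07, 2.64 and 3.51, HSP81-2 had 2.20, 3.72 and 2.41, and HSP90.1 had 1.90, 3.93 and 2.49. In the endoplasmic reticulum 9 of 11 chaperone genes were bound, but 1 by a region of all 3 replicates, SHD (the HSP90 of that compartment) with 1.99, 2.67 and 2.19. BIP2, the HSP70 of that compartment, had 2.399 and 3.14 in replicates 2 and 3, and the calreticulin genes CRT1a and CRT1b had 2.62 and 3.04, and 2.03 and 3.07. Regulators of the unfolded protein response were bound in 7 of 9 cases. BZIP60, the factor activated by splicing of its messenger RNA, had 2.38, 1.96 and 4.56, BZIP28, which is released from the membrane by cleavage, had 2.19, 2.00 and 3.35, and NAC062 and BZIP17 had no peak in replicate 1.

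Other folding genes gave these counts. Of PDIL and ERO genes, which form disulfide bonds, 5 of 15 were bound, and the share lay above all genes in replicate 2 alone. ERO1 had 1.84, 2.399 and 3.23, with ERO2, UNE5 and PDIL1-6 in replicates 2 and 3. The disposal of misfolded proteins from the endoplasmic reticulum had 4 of 9 genes bound (DER1, DER2.1, UBC32 and ALG12), each in 2 replicates. The share of this list lay above all genes in replicate 3 alone. Small heat shock proteins had 4 of 7 (HSP18.2, HSP23.6-MITO, HSP17.6A and HSP17.4). Heat shock factors had 12 of 21, and their share stood above all genes by 18.5, 22.6 and 20.6 points in the 3 replicates. HSFA3, a drought and heat factor, had 2.07, 3.60 and 4.36, beside HSF4, HSFC1 and HSFA1E.

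Autophagy genes differed by group. The ATG8 genes, whose products coat the membrane of the growing autophagosome, were bound in 7 of 9 cases. APG8H had 2.20, 2.86 and 3.64, and ATG8H, ATG8F and ATG8G each had peaks in 2 replicates. Of the 24 other autophagy genes 8 were bound, or 33.3%, although single lists stood 6.01, 5.96 and 36.1 points above all genes in replicates 1, 2 and 3. G18F led with 2.55, 8.20 and 3.94 at an anchor 712 bp outside the gene, followed by AT4G30790, ATG2 and AtATG18a.

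Genes of the mitochondrial dysfunction regulon were bound in 8 of 12 cases, 7 of them in all 3 replicates. Their share stood 35.2, 47.6 and 36.1 points above all genes in replicates 1, 2 and 3. CRF6, a cytokinin response factor, had folds of 2.74, 3.86 and 4.80, AOX1A, the alternative oxidase that bypasses part of the electron transport chain, had 1.95, 4.06 and 3.50, and ERF71 had 2.03, 2.80 and 3.45. Other NAC factors (NAC013 and NAC017) are known to act on this set. RCD1 and its SRO relatives, proteins that bind NAC factors, had 5 of 6 bound, with a median rank of 77.4. RCD1 had 2.27, 2.07 and 5.54 at its anchor, SRO5 had 1.99, 2.91 and 3.24, and SRO2 had 1.94, 2.52 and 3.04.

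Transcription factor families were bound to different extents. ERF and DREB genes, of ethylene, drought and cold responses, led with 43 of 59 bound and 22 in all 3 replicates, at a median rank of 70.3. CRF5 had 2.59, 3.0004 and 5.23, and ERF104 and ERF12 had peaks in replicates 2 and 3. The WRKY family, of defence and senescence, had 34 of 71 bound. WRKY11 had 2.63, 3.35 and 4.46, WRKY33, a regulator of resistance to necrotrophic fungi, had 2.16, 3.04 and 4.26, and WRKY15 and WRKY7 were the other leaders. In the NAC family 42 of 100 genes were bound, 7.17, 6.96 and 2.45 points above all genes. ATAF2, a regulator of stress and senescence, had 2.58, 5.15 and 5.49, NAC102 had 2.22, 3.25 and 4.56, and NAC048 and NAC049 shared an anchor at 2.28, 3.12 and 4.46.

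The remaining families differed in direction. The MYB family had 36 of 130 genes bound and lay below in each replicate. Its best members were still ranked high: MYB70 with 3.42 and 6.66 in replicates 2 and 3, MYB73 with 2.38 and 5.24 in replicates 1 and 3, MYB7, and MYBR1 (also MYB44, an abscisic acid factor) with 2.33, 4.14 and 4.22. The bZIP family had 17 of 55, below all genes in replicate 1 and above in replicates 2 and 3, led by GBF2, BZIP61, BZIP53 and GBF3. Genes of GATA and B-box zinc fingers, many of them in light responses, had 27 of 60 and stood 6.84, 9.29 and 11.1 points above all genes in replicates 1, 2 and 3, led by BBX8, BBX28, BBX21 and COL5. AGAMOUS-like genes, mostly of flower and seed development, had 18 of 96. AGL44, the nitrate-responsive root gene ANR1, ranked first of the 18 with 2.50, 3.73 and 3.73, followed by AP1 with 2.15, 2.15 and 3.18, AGL94 and AGL104.

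Abscisic acid lists differed in the rank of their bound genes, from 51.0 for SnRK2 kinases to 81.4 for clade A PP2C genes. Of 14 receptor genes 8 were bound, at a median rank of 76.5. PYL5 had folds of 2.75, 3.68 and 4.95, PYL4 2.18, 3.51 and 3.97, and PYR1 2.41, 3.01 and 3.18, and PYL13 had a peak in replicates 2 and 3. Clade A PP2C phosphatases, the brakes of the pathway, had 6 of 9 at a median rank of 81.4. HAI1 had 2.09, 2.60 and 3.82, PP2CA 2.57 and 3.87 in replicates 2 and 3, and HAB2 and AHG1 were bound in 2 replicates each. SnRK2 kinases, which the phosphatases hold in check, had 7 of 10 at a median rank of 51.0, OST1 with 2.09, 2.21 and 2.79, and SNRK2.3, SNRK2.1 and SNRK2.7 in replicates 2 and 3. Of the genes that make or break down the hormone 5 of 15 were bound, or 33.3% beside 34.3% of all coding genes. CYP707A1, AAO3, NCED3 and ABA1 came first, each without a peak in replicate 1. LEA proteins, which protect dry cells, had 9 of 14, led by LEA14 with 2.37, 2.70 and 5.24 and ERD14 with 2.19, 5.12 and 4.85, then ERD10 and AT2G46140.

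Kinases of calcium and stress signalling split by family. CIPK kinases had 15 of 26 bound, at a median rank of 72.8. CIPK15 had 2.51, 3.83 and 5.57, CIPK12 2.38, 2.28 and 3.28, and SIP4 a peak in replicates 2 and 3. The CPK kinases had 12 of 34 and stood within 3 points of all genes in each replicate, led by CPK25 with 2.33, 3.38 and 4.36 and then CPK7, CPK15 and CPK9. MAP kinases and their activators had 16 of 33. MPK11 had 2.72, 2.89 and 3.72 and MKK9 2.16, 2.82 and 4.02, with MPK3 and MKK4 in replicates 2 and 3.

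Among cell cycle genes most inhibitors and few mitotic cyclins were bound. CDK inhibitors of the KRP and SIM/SMR type had 8 of 11 genes bound at a median rank of 79.8, above all genes by 21.5, 28.7 and 26.3 points. AT5G02220 (SMR4) had 2.65, 6.44 and 3.92, AT1G07500 (SMR5), an inhibitor induced by DNA damage, had 2.03, 3.01 and 3.48, ICK1 had 2.19, 4.24 and 5.14, and KRP6 had 1.96, 2.93 and 4.36. Of 20 mitotic cyclins 2 were bound, CYCB2;2 with 1.92, 2.32 and 2.80 and CYCA2;4 with 1.70, 2.13 and 3.82, and the share was below all genes in every replicate. D-type cyclins had 3 of 10 (CYCD4;1, CYCD3;1 and CYCD5;1), 30.0% beside 34.3% of all coding genes. None of the D-type cyclins was bound by a region of all 3 replicates, where 10.9% of all coding genes were. Their share was above all genes in replicate 3 alone. DNA damage regulators and repair genes had 10 of 26, close to all genes. NAC085, which acts in the same damage response, had 2.04, 3.62 and 4.12, and TSO2, a ribonucleotide reductase gene, had 2.31 and 3.72 in replicates 2 and 3.

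Photosynthesis and housekeeping lists varied. Light-harvesting genes had 12 of 21 bound, though at the lowest median rank of any list with at least 5 bound genes, 39.7. LHCB4.1 had 2.35, 2.62 and 3.72 and LHCB2.1 2.28, 2.61 and 2.99, with LHCB4.3 and LHB1B2 next. Photosystem subunits had 13 of 24 but lay below all genes in replicate 1, and of the 5 RuBisCO small subunit and activase genes RBCS1A and RBCS3B were bound, with a share below all genes in replicate 2 alone. Tubulins had 8 of 15 (TUB8, TUA5, TUA4 and TUA3 first) and cytosolic ribosomal proteins 13 of 30 (SAC52, RPL23AB, SAG24 and RPL24A first). The ribosomal list was above all genes in 6 of 10 alternative settings. Genes of senescence and chlorophyll breakdown had 12 of 22, among them SAG21 with 3.06, 4.66 and 2.64 and NYE1, the chlorophyll dechelatase, with 2.18, 2.35 and 4.02, beside ACD2.

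Auxin genes and genes of metabolism differed by list. Aux/IAA repressors had 16 of 29 bound and stood 26.6, 14.6 and 13.4 points above all genes in replicates 1, 2 and 3, led by IAA2 with 2.27, 3.67 and 4.36, then IAA20, IAA7 and IAA16. Auxin response factors had 7 of 24 and lay below all genes in each replicate. ARF19 led with 2.28, 2.80 and 5.10, before ARF6, ARF2 and ARF9. SAUR genes had 29 of 80, led by AT5G10990, AT1G17345, AT1G56150 and AT1G72430. Glutathione transferases, of detoxification, had 23 of 48. GSTF8, a marker of early stress, had 2.09, 3.22 and 3.69. GSTF3 had 2.35, 8.21 and 3.09 at an anchor with the snRNA gene U2.10b/12, and GSTF9 and GSTF10 shared an anchor. UDP-glycosyltransferases had 30 of 64, led by UGT74B1 of glucosinolate synthesis with 2.57, 11.6 and 3.75 at an anchor inside the snRNA gene U5.5, then UGT85A1, UGT73B4 and UGT71B8. Cytochrome P450 genes, the largest list, had 63 of 234 and stood at -3.72, -1.73 and -5.12 points relative to all genes, led by CYP81G1, CYP71B23 and CYP71B3, and CYP710A2. Histone genes had 10 of 24 (HTR12, HTA8, H2AXA and HTB1 first), aquaporins 11 of 34 (NLM1, PIP1;4, DELTA-TIP and PIP3) and cell wall expansins and XTH genes 23 of 67 (EXPA6, XTH18, XTR6 and EXPB3). Receptor-like proteins had 14 of 52, led by RLP43 with 2.43, 5.60 and 3.72, before RLP32, RLP33 and RLP52. The SAUR, histone, aquaporin, expansin and XTH, and receptor-like lists were mixed in direction between replicates. Their shares bound were 36.25%, 41.7%, 32.4%, 34.3% and 26.9% in this order, beside 34.3% of all coding genes.

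Genes of secreted cysteine-rich peptides and of UMAMIT transporters were among those bound least. LCR and SCRL genes, which encode small cysteine-rich secreted peptides, had 13 of 111 bound and stood at -11.2, -26.0 and -35.7 points relative to all genes in replicates 1, 2 and 3. They are short as well, with a median length of 587 bp. LCR32 had 2.07, 2.95 and 4.12, and LCR9, LCR76 and SCRL2 had peaks in 2 replicates. Of the EC1 genes, which egg cells secrete, 1 of 5 was bound, EC1.4 with 2.07 and 2.08. UMAMIT transporters, of amino acid export, had 4 of 44 bound, and with a median length of 2562 bp they were not short. UMAMIT24, UMAMIT28 and WAT1 had peaks in all 3 replicates with folds of 1.82 to 2.09 in replicate 1, and UMAMIT1 in replicates 2 and 3.

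How often a list was bound and how strongly were different things. The 20S core genes and the endoplasmic reticulum chaperones had 91.7% and 81.8% of members bound at median ranks of 56.1 and 55.4, below the 58.5 of all bound coding genes. The genes of abscisic acid synthesis and breakdown had 33.3% bound, near the 34.3% of all coding genes. The median rank of their 5 bound genes was 81.2. By regions of all 3 replicates 0 of 15 were bound, beside 10.9% of all coding genes. The rank is a mean over the replicates with a peak, so a missing peak does not lower it. Clade A PP2C, CDK inhibitor and RCD1 and SRO genes combined a share of 66.7% to 83.3% with ranks of 77.4 to 81.4. With the region midpoint as anchor the RCD1 and SRO list stood at -0.0255 points relative to all genes, and with peaks of −log10 q of at least 10 alone no clade A PP2C gene was bound. No test was made of these differences between lists, and no expression data were used, so the part of transcription under MG132 in the binding at these genes was not tested.

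**Figure D5:**
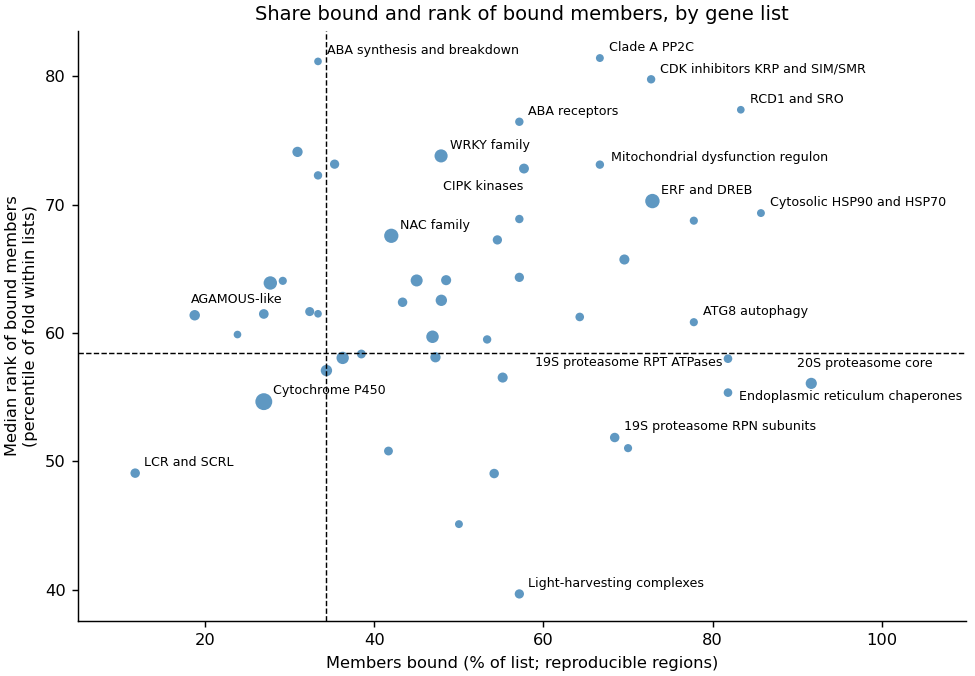
Each point is 1 gene list with at least 5 bound genes, by the share of its members bound and the median rank of the bound members (percentile of fold within the lists), with larger points for more bound genes and dashed lines at 34.3% and 58.5 for all coding genes. The 20S core, RPT and endoplasmic reticulum chaperone lists lie far right near average rank, and the RPN list lies at 68.4% and 51.9. Abscisic acid receptor, abscisic acid synthesis, clade A PP2C, CDK inhibitor and RCD1 and SRO lists lie high, while SnRK2 kinases lie at 51.0.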

How the data were processed

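Whole seedlings were profiled by ChIP (3 lists) and DAP (2 lists). The authors' deposited narrowPeak lists give, for each peak, a fold enrichment over background (a ratio), a −log10 p and −log10 q, and an integer score. Reads were processed with BWA, MACS2 and TAIR10, per the submitters' processing notes; versions, duplicate handling and the treatment of reads with several matches are not given in the sources used here. Input samples had no list of their own. The score was not used further.

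Regions, anchors, ranks, windows and exact tests were computed with python 3.11.15, numpy 2.4.6 and pandas 2.3.3, and figures with matplotlib 3.10.9. The steps were tested on simulated data. Genes came from a RefSeq table without strand, so windows of 1000 bp outside and 500 bp inside were set at both gene ends in place of the starts that had been planned. As a check of the build, the share of summits near gene ends was higher in 25 of 25 chromosome segments than after a shift of 2000 bp. Peak numbers limit the precision, and read depth is unknown. ChIP and DAP were compared by exact two-sided permutation over lists. Gene lists were filled by matching symbols, synonyms and locus tags, may lack members of a class, and are described by counts, without a test. Named genes are NAC103, the 20 best-ranked bound coding genes in all 3 replicates, up to 4 best-ranked bound genes of each list and the best gene of a noncoding type; other snRNA genes and genes under wide regions were named after their values were seen. The members and lists were chosen with earlier results of these data known. The alternatives for snRNA genes and wide regions were chosen after seeing the data. Promoter motifs were not analysed here.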

Additional observations from a re-analysis of the deposited data

Results flagged for a closer look

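Peaks on the organelle genomes were outside the comparisons, which used chromosomes 1 to 5. ChIP replicate 1 had 19 peaks on the mitochondrial genome and replicate 3 had 14, while replicate 2 had 2. On the plastid genome ChIP replicate 3 had 7 peaks, replicate 1 had 2 and replicate 2 had 0. There is no ChIP of untagged seedlings among the samples used here to set these counts against, and the DAP lists had 21 and 22 mitochondrial and 25 and 27 plastid peaks.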

How the results depend on the processing

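The number of reproducible regions, 9501, fell to 1112 with peaks of −log10 q of at least 10, to 3160 with equal numbers of top peaks, to 2781 with a peak in all 3 replicates and to 5968 with summits within 100 bp, and ran from 2916 (without replicate 3) to 8657 (without replicate 1). Bound genes, 9407, were 1144, 3286, 3000 and 6086 under the same settings, 5379 with the narrow window of 500 bp outside and 100 bp inside, and 3038 to 8809 without 1 replicate. The share of anchors in a window, 79.7%, was 74.3% with the strict q, 47.3% with the narrow window and 75.3% to 80.5% without 1 replicate. Wide regions, 212, were 123 with the strict q, 116 with summits within 100 bp and 34 to 211 without 1 replicate. Of the 60 lists, 43 had a larger share of bound genes than all coding genes, and 28 with the strict q.

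Single lists turned their direction in 24 cases, in percentage points relative to all genes. With the strict q, values were -4.17 for unfolded protein response regulators, endoplasmic reticulum chaperones, small heat shock proteins, clade A PP2C, SnRK2, light-harvesting and tubulin genes, -0.84 for ribosomal proteins, -0.00182 for glutathione transferases and 4.16 for auxin response factors. With the narrow window they were -1.29 for WRKY, -2.36 for Aux/IAA, -5.31 for abscisic acid receptors and for LEA, -0.55 for light-harvesting and 0.40 for EC1 genes. SnRK2 genes had -11.97 with equal top peaks, endoplasmic reticulum chaperones -1.84 in all 3 replicates, SKP1-like genes 1.63 with summits within 100 bp and RCD1 and SRO genes -0.0255 with the region midpoint as anchor. Only the nearest gene gave -3.99 for ribosomal proteins and 1.01 for auxin response factors. Ribosomal proteins ran from -1.07 to 11.2 without 1 replicate, with -0.21 without replicate 2. The cause was not tested.

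The ChIP and DAP differences kept their direction under every alternative run. As a replicate block, the 2 same-numbered pairs differed by 17.1 points near an end, -7.08 points inside genes and -265.75 bp in distance. The numbers join separate assays, and with 2 pairs no paired test was made. Start-only windows and promoter motifs were not run, since no strand or sequence was used here.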
